A study of Mus musculus with 6 samples.

Results

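The Cyp2c genes encode a family of cytochrome P450 enzymes, and 10 of them were followed here in mouse liver: Cyp2c29, Cyp2c37, Cyp2c38, Cyp2c39, Cyp2c40, Cyp2c44, Cyp2c50, Cyp2c54, Cyp2c55 and Cyp2c70. They were chosen by name, with earlier results of these data known, and every probe that the array design names for a member was taken. This gave 13 of the 55681 probes apart from controls, for 9 of the 10 members. Each of the 13 cleared the background on every array of the DMSO mice, of the CBZ mice or of both, as did 22352 probes of 17047 genes in all. Cyp2c40 had no probe of its own name. Its RefSeq accession is listed by 1 probe of Cyp2c67 and 1 of Cyp2c68, which are described apart from the members.

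The livers came from 6 mice of the inbred strain C57BL6/J, taken whole 2 h after dosing by mouth. CBZ, which the labels give only by this abbreviation, was given at 250 mg/kg to 3 mice, and the 3 control mice were given dimethyl sulfoxide (DMSO), a solvent. Each mouse's RNA carried the dye Cy3 and was read on a 1-colour Agilent array of its own. The labels give neither the sex nor the age of the mice, and no agent or allele besides these was named.

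Cyp2c enzymes sit in the membrane of the endoplasmic reticulum, take electrons from the reductase Por, and oxidise drugs, steroids and fatty acids. Several mouse members turn arachidonic acid into epoxides or hydroxy acids that act as local lipid signals. In liver their transcription depends on HNF4A, and the xenobiotic receptors CAR (Nr1i3) and PXR (Nr1i2) raise some members when a foreign compound is present. The genes lie in a cluster on chromosome 19, and their transcripts are so alike that a probe for one can share much of its sequence with another.

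The tissue label was borne out by liver genes. Alb, the main plasma protein, lay between 1153 and 1333 times the 75th percentile of its array, and the P450 Cyp2e1 between 943 and 1112 times. Of 5 intestinal genes, Cdx1, Cdx2 and Vil1 were well above background on 0 of 6 arrays, Muc2 on 2 and the fatty acid carrier Fabp2 on 6, at 48.2 to 79.1 times the 75th percentile. The female-specific transcript Xist was well above background on 0 arrays, and of the Y-linked genes, Ddx3y and Eif2s3y were so on all 6, Uty on 1 and Kdm5d on 0. All arrays lay on 1 slide, with the 3 DMSO arrays and CBZ replicate 1 in row 1 and CBZ replicates 2 and 3 in row 2. An array had 42.6% to 45.8% of its spots well above background and none saturated. In whole liver, a smaller number of cells of a type and less RNA per cell cannot be told apart.

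How much of each probe is particular to its gene bears on every value that follows. Among the 153 pairs formed by the 18 Cyp2c probes, 5 pairs overlapped over at least 20 bases without a gap at 80% identity or more. Probes were compared only with each other, not with whole transcripts. A probe outside these pairs can therefore still match the transcript of another Cyp2c gene. The Cyp2c29 probe shared 27 of 31 overlapping bases with a Cyp2c37 probe. The overlap is shown for both, with the 4 bases that differ in capitals.
Cyp2c29: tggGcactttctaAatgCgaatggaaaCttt
Cyp2c37: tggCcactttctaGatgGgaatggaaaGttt
The other Cyp2c37 probe shared 35 of 40 bases with the Cyp2c50 probe, and the first 30 bases of that overlap are shown in the same way.
Cyp2c37: cacactggacaCactgACttttatccaGtt
Cyp2c50: cacactggacaTactgCTttttatccaTtt
A pair of Cyp2c54 probes shared 42 identical bases, in capitals here, so they read nearly the same stretch of transcript from 18 bases apart.
Cyp2c54, from base 778 of its target: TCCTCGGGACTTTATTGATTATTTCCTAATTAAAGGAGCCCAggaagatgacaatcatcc
Cyp2c54, from base 760 of its target: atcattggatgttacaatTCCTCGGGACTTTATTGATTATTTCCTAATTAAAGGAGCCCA
The Cyp2c55 probe was in none of the 5 pairs, and the brighter Cyp2c38 probe shared 16 of 20 bases with the Cyp2c65 probe. Their first 30 bases are given because these probes separated the groups.
Cyp2c55: ttcattcctcgttaaagcagaacacactgg
Cyp2c38: aatggattaattgctctgccaccccattac

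CBZ-treated livers were set against DMSO livers to ask which Cyp2c transcripts differed 2 h after dosing. Cyp2c55 rose 2.91-fold in the livers of CBZ-treated mice and was the only one of the 13 member probes past the threshold. The other 12 probes lay between a log2 fold change of -0.09 and 0.50, and none of them was past it. The fit was limma's moderated test over all 22352 probes, two-sided, with a Benjamini-Hochberg adjusted p under 0.05 as the threshold. By that rule 0.0626% of all probes were called in either direction, 0.0537% as higher in CBZ and 0.00895% as lower.

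Cyp2c55 makes a hydroxy acid of arachidonic acid in mouse colon and is known in liver as a gene that CAR and PXR activators raise. Its probe lies on chromosome 19, 39116674 to 39116733 on the forward strand of mm9, the build of the array design. In multiples of the array's 75th percentile, its signal was 1.89, 1.88 and 1.56 in DMSO replicates 1 to 3, and 6.31, 5.17 and 4.17 in CBZ replicates 1 to 3. The lowest CBZ mouse was far above the highest DMSO mouse, and the spread was wider among the CBZ mice. The log2 fold change was 1.54 ± 0.18 (SE, n = 3 mice per group), and the 95% confidence interval of the fold ran from 2.20 to 3.84. The adjusted p in limma was 0.033. With the row on the slide as a covariate, which leaves CBZ replicate 1 as the mouse compared with DMSO, Cyp2c55 was at 1.84 on the log2 scale, with an adjusted p of 0.063 in limma. Leaving out 1 mouse kept the value between 1.39 and 1.69, but limma's adjusted p was under the threshold only without CBZ replicate 1 (0.037), and otherwise ran from 0.052 without DMSO replicate 1 to 0.25 without CBZ replicate 2.

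**Figure D1:**
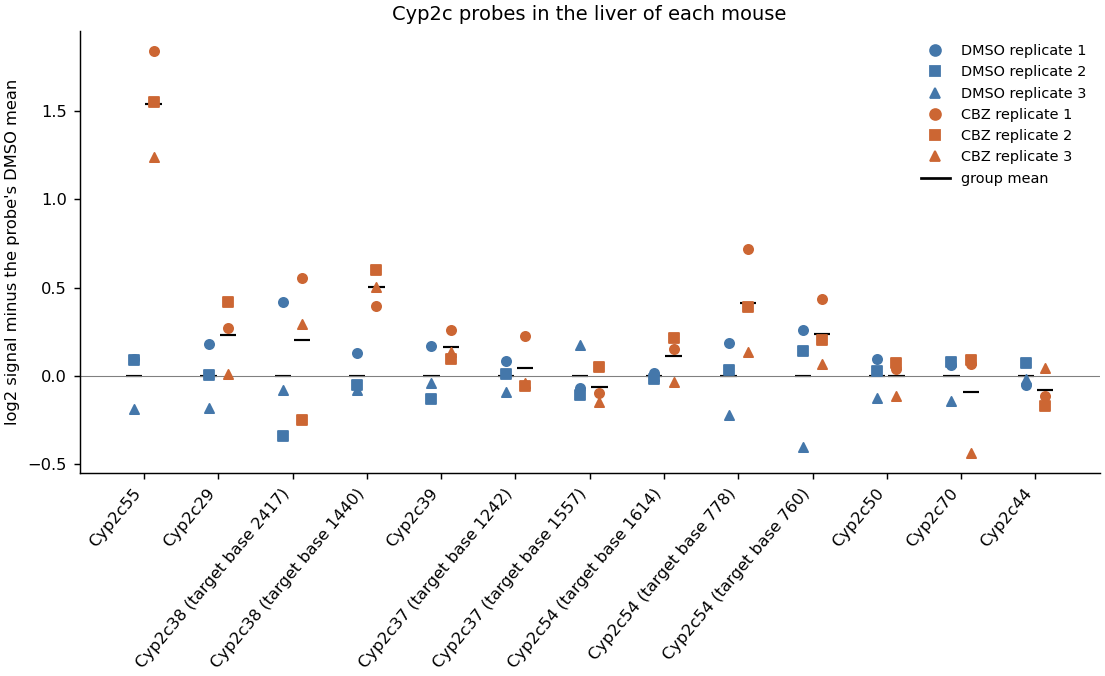
Log2 signal of each of the 13 Cyp2c member probes in each mouse, minus the probe's mean over the 3 DMSO mice; points are mice, black lines are group means. Cyp2c55 stood 1.24 to 1.84 above its DMSO mean in the CBZ mice, and the other probe without overlap between the groups was Cyp2c38 from base 1440 of its target.

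Cyp2c38 is a close relative of Cyp2c29 and, like it, can act on arachidonic acid. Its brighter probe lies at 39465415 to 39465474 on the reverse strand of chromosome 19 (mm9). The signal was 298, 262 and 257 times the 75th percentile in the DMSO mice and 358, 412 and 385 times in the CBZ mice. The groups did not overlap, and the spread within each was small. The log2 fold change was 0.50 ± 0.13 (SE), which is 1.42-fold, with a 95% interval of 0.20 to 0.80 on the log2 scale. Its unadjusted p was 0.0042 and its adjusted p in limma was 0.26, so it was not called. An intensity trend with robust variance in limma gave an adjusted p of 0.025 for the same value. The dimmer Cyp2c38 probe (39464438 to 39464497) passed the background test on 1 of 3 DMSO arrays and 3 of 3 CBZ arrays. It read 0.45, 0.26 and 0.32 in DMSO mice and 0.49, 0.28 and 0.41 in CBZ mice, with groups that overlapped in part and a log2 fold change of 0.20 ± 0.25.

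In 2 of the 13 member probes, all 3 CBZ values lay above all 3 DMSO values, and in none below. Over all probes 6.29% separated the groups with CBZ higher. Cyp2c55 and the brighter Cyp2c38 probe differed by 1.04 in their log2 change, with Cyp2c55 larger in each CBZ mouse (by 1.44, 0.95 and 0.73, against -0.03, 0.14 and -0.11 in the DMSO mice). This pair was set side by side after the values were seen, and an exact permutation test over the 6 mice gave p = 0.1, the smallest it can give.

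**Figure D2:**
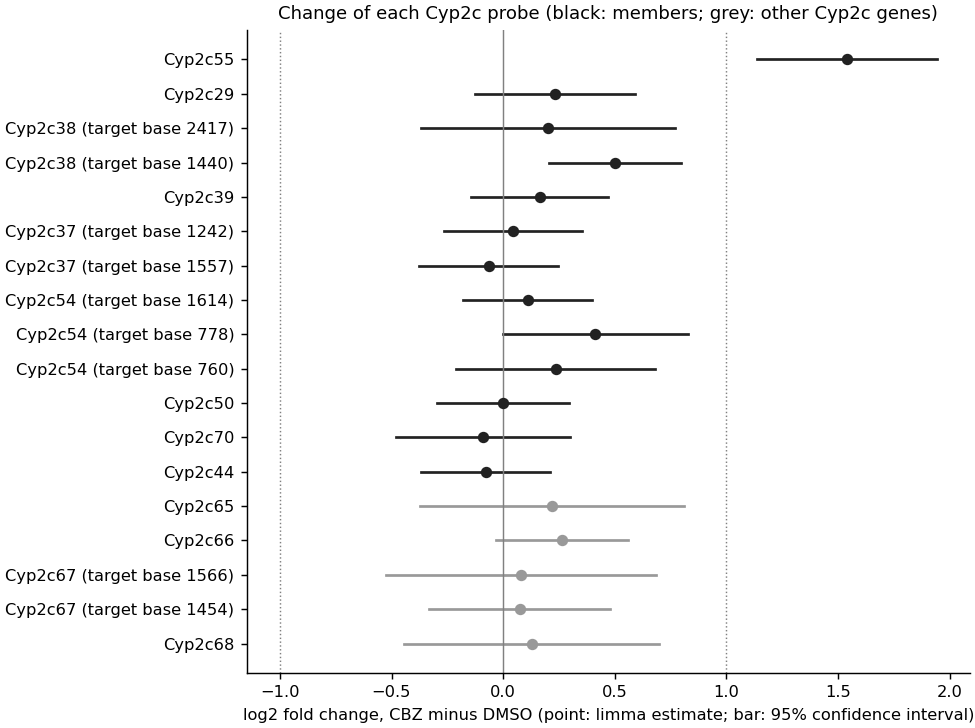
Log2 fold change (CBZ minus DMSO) of the 13 member probes in black and of 5 probes of other Cyp2c genes in grey; points are limma estimates, bars are 95% confidence intervals, and dotted lines mark a 2-fold change. The Cyp2c55 interval lies wholly above 2-fold, and those of the other 12 member probes lie wholly within it.

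Cyp2c29, Cyp2c37, Cyp2c50 and Cyp2c54 are mouse liver enzymes that epoxidise arachidonic and linoleic acid, and Cyp2c29 and Cyp2c37 are known targets of CAR. Cyp2c29 (39403642 to 39403701, forward strand) read 261, 231 and 203 times the 75th percentile in DMSO mice and 277, 307 and 232 in CBZ mice. The lowest CBZ mouse lay within the DMSO range and the others above it. Its log2 fold change was 0.23 ± 0.16 (95% interval -0.13 to 0.59, limma adjusted p = 0.79).

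The array carries 10 spots of the Cyp2c29 probe, which measure the noise between spots of 1 array. Within 1 array the spots had an SD of 0.034 to 0.159 on the log2 scale, and 8 spots were usable in DMSO replicate 2 and 10 elsewhere. Between mice the SD was 0.18 in DMSO and 0.21 in CBZ. The SD between mice also holds what differs between arrays, which spots of 1 array do not measure.

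**Figure D3:**
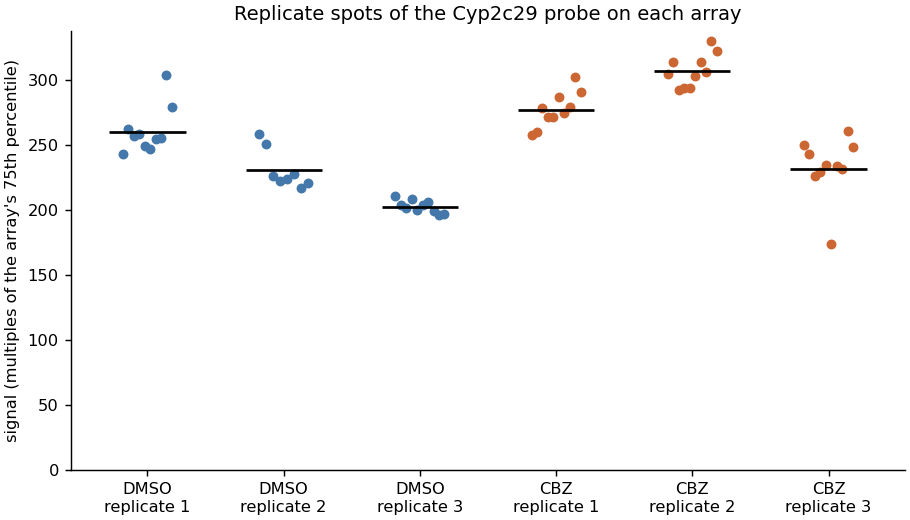
Signal of each usable Cyp2c29 spot (dots) and their mean (line) on each of the 6 arrays, in multiples of the array's 75th percentile. The mean ran from 203 in DMSO replicate 3 to 307 in CBZ replicate 2, and CBZ replicate 3, at 232, lay beside DMSO replicate 2, at 231.

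Cyp2c37 was read by a pair of probes. The probe at 40086467 to 40086526 gave 40.3, 39.3 and 47.8 in DMSO mice and 39.6, 43.8 and 38.2 in CBZ mice, with a log2 fold change of -0.06 ± 0.14. The probe at 40084382 to 40084441 gave 1.70, 1.61 and 1.50 in DMSO mice and 1.88, 1.54 and 1.56 in CBZ mice, with a log2 fold change of 0.04 ± 0.14. In both probes the groups were intermixed. The sign of the latter value turned under median scaling (-0.06).

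Cyp2c50 (40188154 to 40188213, forward strand) was the member nearest to no difference. It read 284, 270 and 244 in DMSO mice and 273, 279 and 246 in CBZ mice, so each CBZ mouse lay inside the DMSO range. The log2 fold change was 0.00 ± 0.13, with a 95% interval of -0.29 to 0.30.

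Cyp2c54 was read by 3 probes on the reverse strand. From base 1614 of the target (40112528 to 40112587) the signal was 141, 137 and 139 in DMSO mice and 155, 161 and 136 in CBZ mice. CBZ replicates 1 and 2 lay above the DMSO mice and CBZ replicate 3 below them, for a log2 fold change of 0.11 ± 0.13. From base 760 (40144659 to 40144718) it was 43.2, 39.7 and 27.2 in DMSO mice and 48.7, 41.4 and 37.7 in CBZ mice, with a log2 fold change of 0.24 ± 0.20.

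The remaining Cyp2c54 probe, from base 778, has its 60 bases split over 22582 bp of mm9 (40122119 to 40144700), so it crosses a gap in the genomic alignment. It read 9.21, 8.31 and 6.95 in DMSO mice and 13.3, 10.6 and 8.88 in CBZ mice. The lowest CBZ mouse fell between DMSO replicates 1 and 2. Its log2 fold change was 0.41 ± 0.18 (limma adjusted p = 0.53), with a 95% interval from -0.0013 to 0.83. The probes from bases 760 and 778, which share 42 bases, both had DMSO replicate 3 as the lowest mouse and CBZ replicate 1 as the highest, and they are not independent readings.

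Cyp2c39, an enzyme of retinoic acid breakdown in mouse liver, read 1.95, 1.58 and 1.69 in DMSO mice and 2.07, 1.85 and 1.90 in CBZ mice (39642568 to 39642627, forward strand). DMSO replicate 1 lay among the CBZ mice, and the log2 fold change was 0.16 ± 0.13 (95% interval -0.14 to 0.47).

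Cyp2c70 makes the muricholic bile acids of mice, and its probe lies at 40227969 to 40228028 on the reverse strand. It read 524, 531 and 455 in DMSO mice and 527, 534 and 372 in CBZ mice. CBZ replicate 3 was the lowest of all, and the other CBZ mice lay close to DMSO replicates 1 and 2. The log2 fold change was -0.09 ± 0.17 (95% interval -0.48 to 0.30).

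Cyp2c44, an arachidonic acid epoxygenase best known from mouse kidney and vessels, is called Cyp2c23 in RefSeq and lies outside the cluster, 4963 kb from the Cyp2c55 probe (44079535 to 44079594, reverse strand). It read 75.4, 82.2 and 77.3 in DMSO mice and 72.2, 69.7 and 80.9 in CBZ mice. CBZ replicates 1 and 2 were the lowest of the 6 mice, and the log2 fold change was -0.08 ± 0.13 (95% interval -0.37 to 0.21).

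For Cyp2c40, a mouse enzyme that makes a hydroxy acid of arachidonic acid, the nearest readings were the probes that list its accession. The Cyp2c67 probe from base 1454 (39683541 to 39683600) read 159, 140 and 147 in DMSO mice and 165, 190 and 122 in CBZ mice. The Cyp2c68 probe (39763420 to 39763479) read 247, 236 and 210 in DMSO mice and 323, 306 and 162 in CBZ mice. In both, CBZ replicates 1 and 2 were above the DMSO mice and CBZ replicate 3 was the lowest of the 6. The log2 fold changes were 0.07 ± 0.18 and 0.13 ± 0.25, and these probes cannot assign the signal among Cyp2c40, Cyp2c67 and Cyp2c68. A further Cyp2c67 probe, which shares 55 of 59 bases with the Cyp2c68 probe, read 261, 242 and 225 in DMSO mice and 338, 313 and 159 in CBZ mice.

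Over the 13 member probes, 10 log2 fold changes were above 0 and 3 below, with a median of 0.16. Among the 10 were the dimmer Cyp2c38 probe, kept only through the CBZ arrays, and the overlapping pair of Cyp2c54 probes. They are thus not 10 independent readings. Over all 22352 probes 48.9% were above 0 and the median was -0.01. Scaling by the array median lowered the median of all probes to -0.11, and 8 member probes were then above 0 and 5 below. Without Cyp2c55, 11 of the 12 confidence intervals included 0, and all 12 lay within a 2-fold change in either direction. Their bounds ran from -0.48 to 0.83, and their adjusted p in limma from 0.26 to 1.00.

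The mice of a group differed among themselves along with this. The mean of the 12 probes other than Cyp2c55, set against the DMSO mean, was 0.12, -0.02 and -0.10 in DMSO replicates 1 to 3 and 0.24, 0.14 and 0.04 in CBZ replicates 1 to 3. DMSO replicate 1 thus lay above CBZ replicate 3. DMSO replicate 3 was the lowest mouse in 7 of the 13 member probes, and CBZ replicate 1 the highest in 6. The mean of 10 Kupffer cell and macrophage genes was also highest in DMSO replicate 1 and lowest in DMSO replicate 3 among the DMSO mice (0.69, -0.25 and -0.44), while that of 10 hepatocyte markers was 0.05, 0.02 and -0.07. Their part in the Cyp2c values was not tested.

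**Figure D4:**
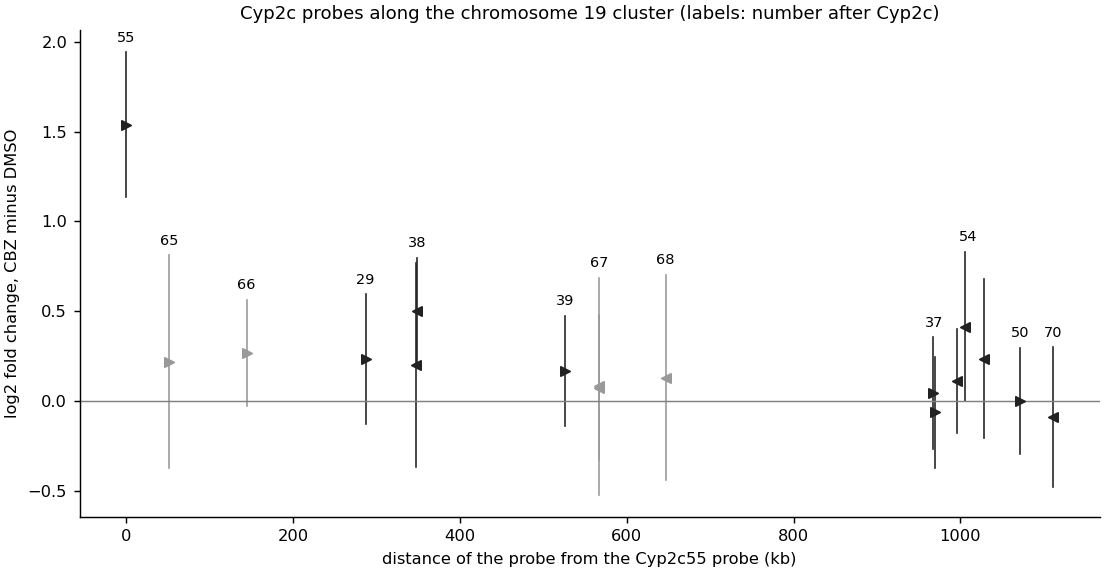
Log2 fold change (CBZ minus DMSO) of the Cyp2c probes against their distance in kb from the Cyp2c55 probe on chromosome 19; black marks are members, grey marks other Cyp2c genes, triangles point along the strand and bars are 95% confidence intervals. Cyp2c55 stands at 1.54 at one end, every other probe lies at or below 0.50, and Cyp2c44, 4963 kb away, is not drawn.

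Neighbours in the cluster were read by 5 probes of Cyp2c65, Cyp2c66, Cyp2c67 and Cyp2c68. The nearest to Cyp2c55 was Cyp2c65, whose probe lies 51.3 kb away and passed the background test on 1 of 3 DMSO arrays and 3 of 3 CBZ arrays, with a log2 fold change of 0.22 ± 0.26. Cyp2c66, 144.5 kb away, read 0.35, 0.40 and 0.37 in DMSO mice and 0.44, 0.42 and 0.48 in CBZ mice. Its groups did not overlap, and its log2 fold change was 0.27 ± 0.13 (limma adjusted p = 0.60). None of the 5 was called by limma, and 0 had an unadjusted p under 0.05, where 9.39% of all probes did.

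The promoters of the members, from 250 bases before to 50 after the start in RefSeq's table for GRCm38.p6, were searched on both strands for a few motifs. The table held 9 promoters of 8 members, with a pair for Cyp2c39 and no entry for Cyp2c44 and Cyp2c54. The promoters of Cyp2c55 and Cyp2c38, which separated the groups, and of Cyp2c29, a close relative of Cyp2c38, are shown with every motif match in capitals.
Cyp2c55, chr19:39006769-39007068, forward strand: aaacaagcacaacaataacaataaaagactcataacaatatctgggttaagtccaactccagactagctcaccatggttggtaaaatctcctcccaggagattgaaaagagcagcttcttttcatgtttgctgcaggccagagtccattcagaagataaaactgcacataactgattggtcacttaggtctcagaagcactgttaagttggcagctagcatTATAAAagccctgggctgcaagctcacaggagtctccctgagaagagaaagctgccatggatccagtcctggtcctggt
Cyp2c38, chr19:39463026-39463325, reverse strand: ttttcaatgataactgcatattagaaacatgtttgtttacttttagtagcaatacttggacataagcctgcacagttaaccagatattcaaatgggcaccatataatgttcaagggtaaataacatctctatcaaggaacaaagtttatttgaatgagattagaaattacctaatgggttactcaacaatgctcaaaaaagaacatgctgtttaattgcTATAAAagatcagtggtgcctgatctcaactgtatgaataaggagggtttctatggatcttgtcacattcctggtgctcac
Cyp2c29, chr19:39286835-39287134, forward strand: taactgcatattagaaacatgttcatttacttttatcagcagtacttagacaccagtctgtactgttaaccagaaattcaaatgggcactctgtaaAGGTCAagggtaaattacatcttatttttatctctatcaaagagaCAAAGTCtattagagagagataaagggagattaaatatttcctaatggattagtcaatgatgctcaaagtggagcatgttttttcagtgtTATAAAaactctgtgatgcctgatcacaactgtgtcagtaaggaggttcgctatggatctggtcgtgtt
The TATA box letters TATAAA stood 29 bases before the start of Cyp2c55 and 31 before that of Cyp2c38. They were found for 6 of the 8 members, in 6 of their 9 promoters, and in 13.6% of all 32851 promoters. The letters lay 41 bases after the start in Cyp2c40, 3 before it in a Cyp2c39 promoter, and on the reverse strand in Cyp2c70. Not all 6 members thus had them at the place and strand seen in Cyp2c55. The nuclear receptor half-site AGGTCA was found in Cyp2c29, Cyp2c39 and Cyp2c70, and in 16.3% of all promoters. The same letters repeated in one direction with any 4 bases between (the spacing known as DR4) were in 0 member promoters and 0.0152% of all. At so low a share, 0 in 9 promoters says little, and only these exact letters in these windows were searched. CAAAGTCCA, a core of HNF4 sites, was in Cyp2c40 and Cyp2c70 and in 0.475% of all promoters. Its first letters, CAAAGTC, which lie inside it, were in 5 of the 8 members (Cyp2c29, Cyp2c37, Cyp2c39, Cyp2c40 and Cyp2c70). That is 6 of their 9 promoters, beside 4.44% of all promoters. Some member promoters are near copies of each other, so these matches are not independent. Of the letters searched, only TATAAA was in the windows of Cyp2c55 and Cyp2c38.

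Some of these promoters are near copies. Those of Cyp2c37 and Cyp2c50 were identical at 264 of 295 aligned bases, and that of Cyp2c38 matched 1 of the Cyp2c39 promoters at 246 of 285 and that of Cyp2c29 at 224 of 278. The Cyp2c38 probes read log2 fold changes of 0.50 and 0.20 and the Cyp2c29 probe 0.23, and these differences were not tested. With these gap penalties the Cyp2c55 promoter aligned with no other member's over more than 4 bases. With cheaper gaps it matched them at 69.0% to 77.8% of aligned bases.

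The genes that serve Cyp2c enzymes were described by their brightest probe, beside 17047 genes of which 0.0528% were called, 8.98% had an unadjusted p under 0.05, and whose median log2 fold change was -0.0033. A listed gene counts as measured here where a probe of it passed the background filter. Of the electron partners, 1 of 7 was above 0 and 6 below, with 0 called by limma and 0 at an unadjusted p under 0.05. Por, the reductase itself, read 176, 192 and 156 in DMSO mice and 183, 188 and 146 in CBZ mice, with the groups intermixed and a log2 fold change of -0.02 ± 0.15.

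Of the regulators of Cyp2c genes, 24 of 26 were measured, 10 above 0 and 14 below, with 0 called by limma. An unadjusted p under 0.05 was found for 3 of the 24, beside 8.98% of all genes. CAR (Nr1i3) was at 0.29 ± 0.15 and PXR (Nr1i2) at 0.27 ± 0.16. The factors with the smallest unadjusted p were Cebpb, an acute-phase transcription factor of liver, at 0.50 ± 0.14, and Ppara, the fatty acid receptor, at -0.49 ± 0.15, with limma adjusted p of 0.30 and 0.33.

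Of the arachidonate epoxide pathway, 10 of 16 genes were measured, 5 above 0 and 5 below, with 0 called by limma. An unadjusted p under 0.05 was found for 1 of the 10, beside 8.98% of all genes. That 1 was Cyp2j5, another epoxygenase, at -0.33 ± 0.14. The epoxide hydrolases Ephx1 and Ephx2 were at 0.04 ± 0.18 and -0.12 ± 0.14.

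Of 34 measured targets of CAR and PXR outside Cyp2c, 24 were above 0 and 10 below, with a median of 0.14. An unadjusted p under 0.05 was found for 6 (8.98% of all genes had one), and limma called 1. This was Gadd45b, a stress gene, with a log2 fold change of 2.95 ± 0.20 and a limma adjusted p of 0.0055. The list was drawn up with earlier results of these data known, so these counts and this call are not separate evidence. Cyp2b10, the P450 most used as a readout of CAR in mouse liver, read 81.1, 28.5 and 52.0 in DMSO mice and 510, 487 and 200 in CBZ mice. Its groups did not overlap, its log2 fold change was 2.90 ± 0.44, and its limma adjusted p was 0.066. Among the CBZ mice it was lowest in replicate 3. So were Cyp2c55 and the uncalled Cyp2c29, Cyp2c50, Cyp2c54 and Cyp2c70, while Gadd45b was highest there. Of the 18 measured CYP2 genes outside Cyp2c, 4 were above 0 and 14 below, with 0 called by limma. An unadjusted p under 0.05 was found for 2 (8.98% of all genes had one). They were Cyp2b10 and Cyp2b9, both also among the CAR and PXR targets. Cyp2b9 was at 2.43 ± 0.35, with a limma adjusted p of 0.066.

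The zone and cell type lists had no called gene in limma. Pericentral genes, which mark the zone where many Cyp2c enzymes are high, had 6 of 18 above 0 with a median of -0.04. An unadjusted p under 0.05 was found for 3, among them Tbx3 at -0.78 ± 0.13 and Ahr at 0.73 ± 0.15. Their limma adjusted p was 0.10 and 0.16. Periportal genes had 11 of 20 above 0 with a median of 0.01. The 1 with such an unadjusted p was G6pc, at 0.77 ± 0.15 (limma adjusted p = 0.15). Hepatocyte markers had 4 of 10 above 0 with a median of -0.01. Sex-biased and sex-linked genes had 5 of 14 above 0 with a median of -0.12, and 6 had an unadjusted p under 0.05 (8.98% of all genes did), among them Cyp4a12a, a male-biased P450, at -0.73 ± 0.20.

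Markers of other cells were at 8 of 10 above 0 for Kupffer cells and macrophages, 4 of 7 for endothelium, 7 of 9 for stellate cells and fibroblasts, 3 of 4 for cholangiocytes and 5 of 5 for lymphocytes. For intestine, where Cyp2c55 is known to be high, all 10 listed genes were on the array. Only 3 of them passed the background filter, with 0 above 0. Whether any of the Cyp2c55 signal came from intestine was not tested. For pancreas 2 of 10 passed the filter, with 0 above 0. Genes of red cells and platelets were at 3 of 6. Of these lists only that of cholangiocytes, with 1 gene, and that of red cells and platelets, with 2, held genes at an unadjusted p under 0.05, beside the 8.98% of all genes.

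The genes whose pattern over the 6 arrays was most like that of Cyp2c55 were found by the root mean square difference of log2 signal after each probe was centred on its own mean. Among 11486 genes with a symbol, the nearest was Gpcpd1, which acts on glycerophosphocholine, at a difference of 0.22. It read 4.44, 4.66 and 4.62 in DMSO mice and 11.1, 11.9 and 10.2 in CBZ mice, and its groups were tight and well apart. The retinoic acid receptor Rarb followed at 0.26, the ubiquitin ligase adaptor Klhl25 at 0.30, Myc, a transcription factor of cell growth, at 0.33 and Alas1, the first enzyme of haem synthesis, at 0.36. Their folds were 2.42 for Gpcpd1, 2.15 for Rarb, 2.09 for Klhl25, 3.12 for Myc and 2.00 for Alas1. In limma, Gpcpd1, Klhl25 and Myc were called (adjusted p of 0.019, 0.036 and 0.030), and Rarb and Alas1 were not (0.0502 and 0.17). Of all 17047 genes, 0.0528% were called. Genes picked for likeness to Cyp2c55 differ between the groups by that choice, so these folds and calls are not separate evidence. Among the CBZ mice Cyp2c55 was highest in replicate 1, while Gpcpd1 was highest in replicate 2.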

How the data were processed

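RNA of 6 livers, 3 per group, was measured on 1 array per mouse, and groups came from the labels. Per the file headers, the authors extracted each scan with Agilent Feature Extraction 10.7.3.1 (protocol GE1_107_Sep09), and the deposited intensity of a spot is already background-subtracted and detrended. The authors' deposited value table holds a ratio, the processed intensity over the array's median, since the scanner values divided by that median gave 100% of its values within 1%. Its scale is linear and each column's median is 1.

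Control and outlier spots were left out, log2 of the processed intensity minus the array's 75th percentile was taken, and spots of a probe were averaged. A probe was kept where the software marked it well above background on every array of DMSO, of CBZ or of both. limma 3.58.1 in R 4.3.3 compared CBZ with DMSO (two-sided, Benjamini-Hochberg over 22352 probes, no covariate), and its standard errors and p-values measure the spread between mice. The fit was tested on simulated data. The number of arrays limits the precision.

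Genes were named through a RefSeq table by accession or symbol, positions are on mm9, as in the array design, and exon and UTR annotation was not used here. Promoters were aligned with Biopython 1.88 (match 1, mismatch -1, free ends, gap opening -5 and extension -1, or -2 and -0.5 for the cheaper gaps, which were tried first and aligned every pair).

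The members and the 17 gene lists were chosen with earlier results of these data known. Genes named were every member probe, the called genes and the 2 smallest unadjusted p of the pathway lists, a few regulators and readouts in any case (Nr1i3, Nr1i2, Por, Cyp2b10, Ephx1, Ephx2 and Gadd45b), and the 5 genes most like Cyp2c55. Fewer of these are printed than the rule allows. Alternatives varied the background correction, scaling, filter, variance model, block, slide row, mice and threshold.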

Additional observations from a re-analysis of the deposited data

How the results depend on the processing

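The log2 fold change of Cyp2c55 stayed above 0 in all 16 alternatives (1.30 to 1.84), but limma's adjusted p was past the threshold in 7 and not in 9 (1.6e-05 to 0.52). It was not past it with quantile scaling (1.56, adjusted p = 0.065), the 75th percentile of spots detected on all arrays (1.57, 0.11), no filter (1.54, 0.52), the slide row (1.84, 0.063) and, leaving out 1 mouse (1.39 to 1.69), in 5 of 6 cases. Called member probes were 0 in these settings (0 to 1 leaving out a mouse) and 2 with the intensity trend. No pairing of mice by replicate number was seen. Deviations of same-numbered arrays correlated at -0.24, 0.02 and 0.18, and those of different-numbered arrays ran from -0.35 to 0.38. With 3 arrays per group this cannot exclude a pairing. With the replicate number as a block, Cyp2c55 was at 1.54 (limma adjusted p = 0.0499), and 9 probes were called higher and 1 lower in all. The sign of Cyp2c37, Cyp2c50 and Cyp2c70 turned in 1 to 6 of 17 settings. The brighter Cyp2c38 probe stayed between 0.40 and 0.57, and the dimmer one between 0.024 and 0.56. Over all probes, calls higher and lower were 12 and 2, against 76 and 54 with normexp, 5 and 2 with quantile scaling, 61 and 73 with median scaling, 60 and 71 with the authors' table, 6 and 0 with the detected spots' percentile, 0 and 0 with no filter (2612 at an unadjusted p under 0.05), 32 and 12 with the filter on all 6 arrays, 83 and 90 with the trend, 4 and 3 with the slide row, 37 and 19 at an adjusted p under 0.10, and 0 to 22 and 0 to 8 leaving out a mouse. Called genes of the related lists, 1 higher and 0 lower, were 6 and 1 with normexp, 4 and 2 with median scaling and the authors' table, 4 and 1 with the trend, 3 higher with the 6-array filter and at 0.10, 2 with the block, 0 with no filter, and 0 to 1 leaving out a mouse. Median scaling and the authors' table are nearly the same setting (Cyp2c55 at 1.44 in both), and both are among the 7. They gave every probe a common variance, so their p-values do not measure each probe's own spread. Of 1305 other values, 1225 were rated the same, a rating that let an uncalled fold change turn its sign and a count shift a little. The causes were not tested. With 3 mice per group, standard errors of the 12 other member probes ran from 0.13 to 0.25 on the log2 scale, widest for the dim Cyp2c38 probe, so small differences were not detectable.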
